A study of Mus musculus with 2 samples.

Results

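Transcripts of 10 heat shock proteins of the cytosol and the mitochondrion were followed in the cerebral cortex of mice, using every probe set whose single gene symbol was that of Hspa8, Hsp90aa1, Hsp90ab1, Hsph1, Hspa4, Hspd1, Hspe1, Hspa9, Dnajb1 or Hspa1a. By this rule 26 probe sets of 9 genes were found among 34945 probe sets with 1 symbol. Hsp90ab1, the constitutive cytosolic HSP90 gene, had none in the annotation used here and is not analysed here. The first of 2 Affymetrix arrays carried cortex RNA of wild-type mice, and the second that of mice titled as knockouts of Gnmt, which encodes glycine N-methyltransferase. Each array held an equal mixture of RNA from 3 mice, and both pools are labelled as males of the strain 129/B6 aged 4 weeks. The title of the second sample reads KO but its genotype entry reads wild-type, so it is called the KO-labelled pool and the first the WT pool. The labels do not say which part of Gnmt was deleted. With 1 array for each label there was no replicate, so that no difference was tested and the values stand for these 2 pools of mice alone.

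Heat shock proteins are chaperones that bind unfolded or partly folded proteins and help them reach or regain their shape. HSP70 proteins hold short hydrophobic stretches in a cycle driven by ATP, in which J-domain proteins such as Dnajb1 deliver the client and start ATP hydrolysis, and nucleotide exchange factors such as Hsph1 and Hspa4 open the chaperone again. HSP90 takes over partly folded clients such as kinases and steroid receptors, while in the mitochondrion Hspa9 pulls in and folds imported proteins and the barrel of Hspd1 with its lid Hspe1 encloses them. In neurons, Hspa8 is abundant without stress and also strips clathrin from synaptic vesicles. Under heat or misfolding, heat shock factors raise many of these genes by binding repeats of GAA and its reverse complement in their promoters.

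Those repeats are shown first, since heat shock factors act on this gene family through them. RefSeq promoter windows of assembly GRCm38.p6, from 250 bases before to 50 bases after a transcript start, were given for 6 of the 10 genes. The letters searched were the 2-unit forms GAANNTTC and TTCNNGAA, each of which reads the same on both strands, and the 3-unit forms GAANNTTCNNGAA and TTCNNGAANNTTC, which are each other's reverse complement and contain the 2-unit forms. Upstream stretches of 3 of the genes are printed 5′ to 3′ on the gene's strand, with 2-unit matches in capitals. For Hsph1, upstream is counted from the second annotated start. That stretch lies inside the annotated gene and partly after the first start.
Hspa1a, chr17:34972197-34972286, minus strand: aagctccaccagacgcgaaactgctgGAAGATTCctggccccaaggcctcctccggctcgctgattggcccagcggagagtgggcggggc
Hsph1, chr5:149636316-149636405, minus strand: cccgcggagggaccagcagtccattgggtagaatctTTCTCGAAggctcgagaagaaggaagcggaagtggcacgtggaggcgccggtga
Hspe1, chr1:55088028-55088117, plus strand: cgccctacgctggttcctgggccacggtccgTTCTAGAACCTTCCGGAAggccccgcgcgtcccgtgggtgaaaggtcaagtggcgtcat

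The Hspe1 stretch also lies before the second annotated start of Hspd1, on the opposite strand of chromosome 1, and inside the gene as counted from its first start. Its capital letters hold 3 overlapping 2-unit matches and 2 overlapping 3-unit matches, the first of them starting 89 bases before the Hspe1 start. The same letters lie between 144 and 127 bases before that second Hspd1 start, and the window of the first start holds no match. The Hsph1 windows hold a further 3-unit match, TTCTGGAAAGTTC, from base 16 to base 28 after the second annotated start. Hspa1a has the single 2-unit match printed, 104 bases before its start, and no 3-unit match. No match to these letters lies in the windows of Hspa4 or Dnajb1. A 3-unit match was found for 3 of the 6 genes, against 0.662% of 27025 genes with a window, and a 2-unit match for 4 of the 6, against 17.0%. A match describes letters and is neither a binding site nor a cause of any difference.

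**Figure D1:**
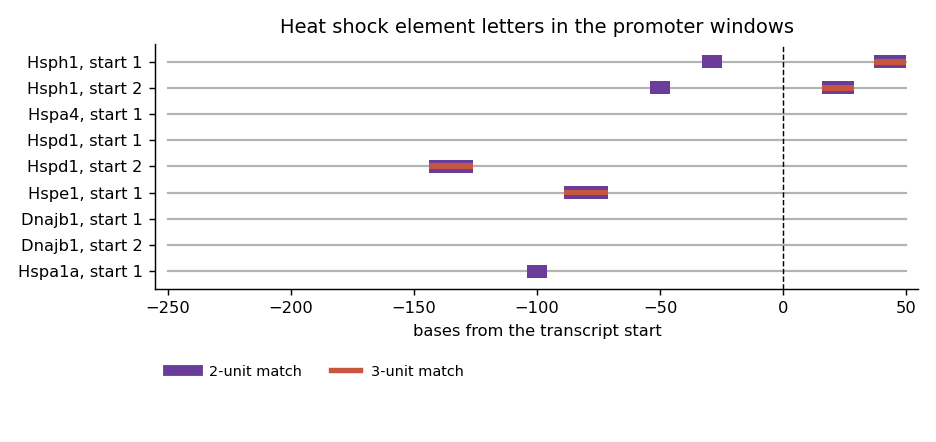
Positions of heat shock element letters in the promoter windows, with bases from the transcript start on the horizontal axis and 1 line for each annotated start of the 6 genes with a window. Purple boxes are 2-unit and narrow red boxes 3-unit matches. Hspe1 and the second Hspd1 start share a block, while Hspa4 and Dnajb1 have no box.

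A few facts of the arrays bear on all values. Signals are linear array units scaled to a common mean, the log2 ratio of KO-labelled over wild-type was centred on the median of measured probe sets, and measured probe sets are those at 64.2 units or more, the floor, on both arrays. The error used here is that between probe sets of a gene, an SD of 0.58 log2 units (1.49-fold) over 5375 genes with several measured probe sets. It leaves out the spread between mice and between arrays. Control transcripts added before hybridization had log2 ratios from 0.07 for bioD to -1.68 for bioC. Gnmt itself lay below the floor in both pools, at 10 and 21.5 units, so it gave no check of the labels. Xist, the RNA of the inactive X chromosome in females, had 49.6 units in the WT pool and 2560.3 units in the KO-labelled pool, although both are labelled male. Kdm5d, Uty and Eif2s3y, which lie on the Y chromosome, reached the floor in both, with log2 ratios of -0.85, -0.22 and 0.16. Of 8 neuron markers all were above the floor in both pools and 1 was at least 1.5-fold lower in the KO-labelled pool, and all 6 oligodendrocyte and 8 astrocyte markers in the table were above it too. The 7 pituitary markers in the table summed to 31369.5 units in the WT pool and 726.3 units in the KO-labelled pool, where 4 of them lay below the floor. The ratio of 3′ to 5′ control signals, a sign of RNA integrity, was 3.71 and 3.76 for Actb and 0.932 and 1.02 for Gapdh in the WT and KO-labelled pools.

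The cytosolic chaperone genes Hspa8, Hsp90aa1, Hsph1 and Hspa4 had lower signals in the KO-labelled pool by their brightest probe sets, while Dnajb1 and Hspa1a did not. All 9 genes were measured. By the brightest probe set of each, 5 of 9 were at least 1.5-fold lower there (Hspa8, Hsp90aa1, Hsph1, Hspa4 and Hspa9), against 18.2% of all 12244 measured genes. None was at least 1.5-fold higher, against 12.5% of all genes. The median log2 ratio of the 9 was -0.78, against -0.06 over all genes. At 2-fold, 3 of 9 were lower, against 6.75% of all genes, and 0 were higher, against 3.47%. The count past 2-fold depended on the scaling, as given below. A ratio from RNA of whole tissue cannot tell fewer cells of a type from less RNA per cell.

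Hspa8 encodes HSC70, the constitutive HSP70 of the cytosol. Its brightest probe set had 37541.2 units in the WT pool and 17713.3 units in the KO-labelled pool, a log2 ratio of -1.10. The next probe sets had 21665.9 and 9152.1 units, a ratio of -1.26, and 8037.5 and 5432.4 units, a ratio of -0.58. Those 3 agree in direction, and all carry a suffix by which Affymetrix marks probes shared between transcripts. The dimmest probe set went the other way, from 151.9 units in the WT pool to 634.6 units in the KO-labelled pool, a ratio of 2.05. It is the only Hspa8 probe set without a suffix, so that leaving suffixed probe sets out turned the gene's ratio to 2.0. Probe sets 1.5-fold apart in both directions occurred in 5.75% of the 5375 genes with several measured probe sets.

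Hsp90aa1, the stress-inducible cytosolic HSP90 gene, was lower by each of its 3 measured probe sets. The brightest had 22081.6 units in the WT pool and 9740.6 units in the KO-labelled pool, a 2.29-fold difference. The second had 11829.8 and 2051.8 units, 5.81-fold lower, and the third 2957.3 and 1260.1 units, 2.37-fold lower. The widest and narrowest of these differ by more than the probe set error, while their direction is the same. The other 2 probe sets of this gene lay below the floor on both arrays and have no ratio.

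The exchange factors of the HSP110 group among the 9 genes were lower as well. Hsph1, which acts on HSP70 in the cytosol, had 8675.5 units in the WT pool and 3336.5 units in the KO-labelled pool, a log2 ratio of -1.39, the lowest of the 9 genes. Its other probe set had 2288 and 463.4 units, a ratio of -2.32. At -1.39 Hsph1 stood 325th from the lowest among all measured genes, at 2.65% of them. Hspa4, a second HSP110 gene, had 1025.8 and 562.6 units by its brightest probe set, a ratio of -0.88. Its next probe sets had 1548.2 and 156.7 units, a 9.96-fold difference, and 293.3 and 125.1 units, a 2.36-fold difference. The 9.96-fold value is the widest of any heat shock probe set here and lies far from the other 2 of its gene. The remaining Hspa4 probe set had 8 units in the WT pool, below the floor, and 88 units in the KO-labelled pool, at least 1.36-fold higher.

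For Hsp90aa1, Hsph1 and Hspa4 every measured probe set was at least 1.5-fold lower in the KO-labelled pool. Of the 7 heat shock genes with several measured probe sets these were 3, against 6.64% of the 5375 genes of that kind. Over all 22 measured heat shock probe sets, 14 were at least 1.5-fold lower, against 18.1% of all 20967 measured probe sets with 1 gene, and 1 was at least 1.5-fold higher, against 16.5%. These probe sets share genes and are not independent of each other.

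**Figure D2:**
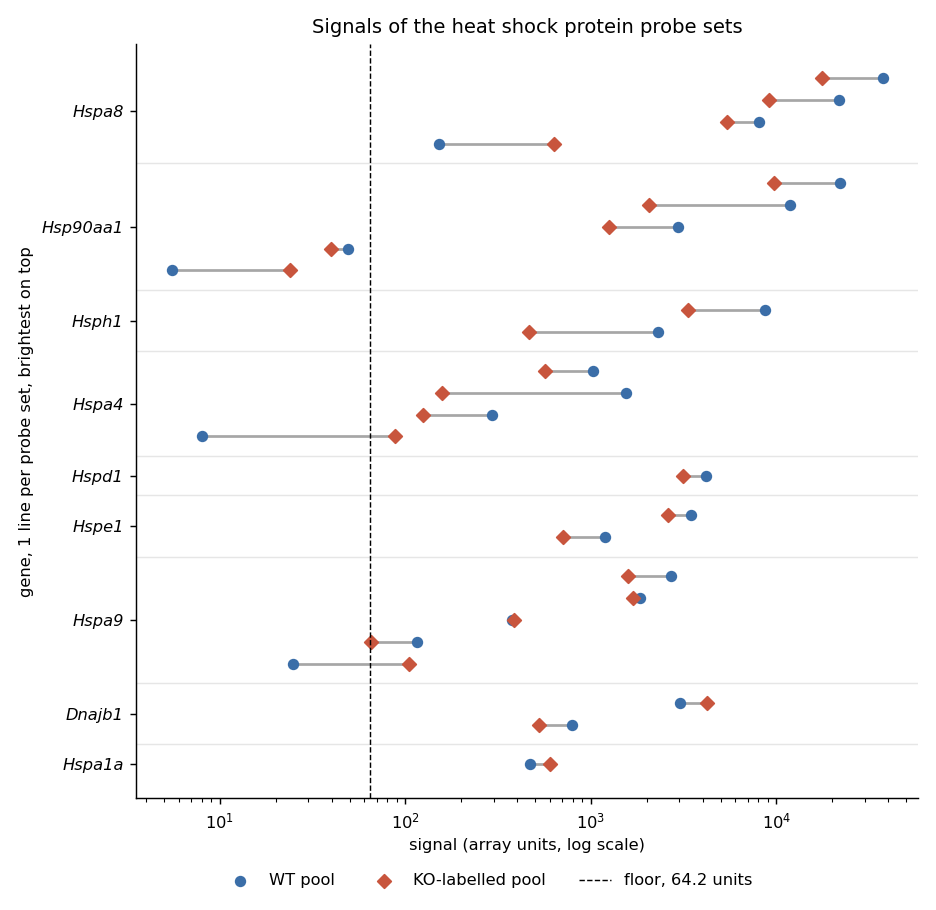
Signal in array units on a log scale for each of the 26 probe sets, grouped by gene with the brightest on top; circles are the WT pool, diamonds the KO-labelled pool, and the dashed line is the floor of 64.2 units. The bright probe sets of Hspa8, Hsp90aa1, Hsph1 and Hspa4 lie further left in the KO-labelled pool, and the dimmest probe set of Hspa8, Hsp90aa1, Hspa4 and Hspa9 lies further right.

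By brightest probe sets the mitochondrial members had ratios nearer 0 than Hspa8, Hsp90aa1, Hsph1 and Hspa4. Between Hspa9 and Hspa4, at -0.88, the difference was less than the probe set error. The cytosolic Dnajb1 (0.47) and Hspa1a (0.35) lay within 1.5-fold, as Hspd1 and Hspe1 did. Hspa9 encodes mortalin, the HSP70 of the matrix, and its brightest probe set had 2695.2 units in the WT pool and 1581.2 units in the KO-labelled pool, a log2 ratio of -0.78. The second had 1833.9 and 1694.1 units, a ratio of -0.13, and the third 373.8 and 385.1 units, a ratio of 0.03. Another, near the floor, had 115 and 65.4 units, a ratio of -0.83, and the dimmest had 24.7 units in the WT pool, below the floor, and 104.1 units in the other. The call of 1.5-fold for Hspa9 therefore rests on its brightest probe set and on the one nearest the floor.

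The chaperonin pair was nearly equal in its ratios. Hspd1, the HSP60 subunit of the barrel, had 4164.5 units in the WT pool and 3158.2 units in the KO-labelled pool by its only probe set, a log2 ratio of -0.41. Hspe1, the HSP10 lid, had 3472.7 and 2617.4 units by its brightest, a ratio of -0.42, and 1197.7 and 706.8 units by its other probe set, a ratio of -0.77. All 3 probe sets were lower in the KO-labelled pool. The brightest probe sets of both genes lay within 1.5-fold and within 1 SD of the probe set error, with 26.6% of all measured genes at or below Hspd1 and 26.1% at or below Hspe1. The Hspe1 window and that of the second Hspd1 start share the block of heat shock element letters printed above.

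Dnajb1 and Hspa1a lay above 0 by their brightest probe sets. Dnajb1, the J-domain partner of HSP70 known as HSP40, had 3018 units in the WT pool and 4211.9 units in the KO-labelled pool, a log2 ratio of 0.47. Its other probe set had 787.1 and 527.8 units, a ratio of -0.59, so the probe sets of this gene disagree in sign. Log2 ratios of both signs occurred in 3 of the 7 heat shock genes with several measured probe sets and in 44.4% of the 5375 genes of that kind. Hspa1a, an inducible HSP70 gene, had 469.5 and 603.9 units by its only probe set, a ratio of 0.35. Hspa1b, its near-identical neighbour, had 796.5 and 863.5 units, a ratio of 0.10, with 3 probe sets between -0.20 and 0.11. Copies this alike can share probes, so their values are uncertain, and neither gene was 1.5-fold apart by any measured probe set.

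**Figure D3:**
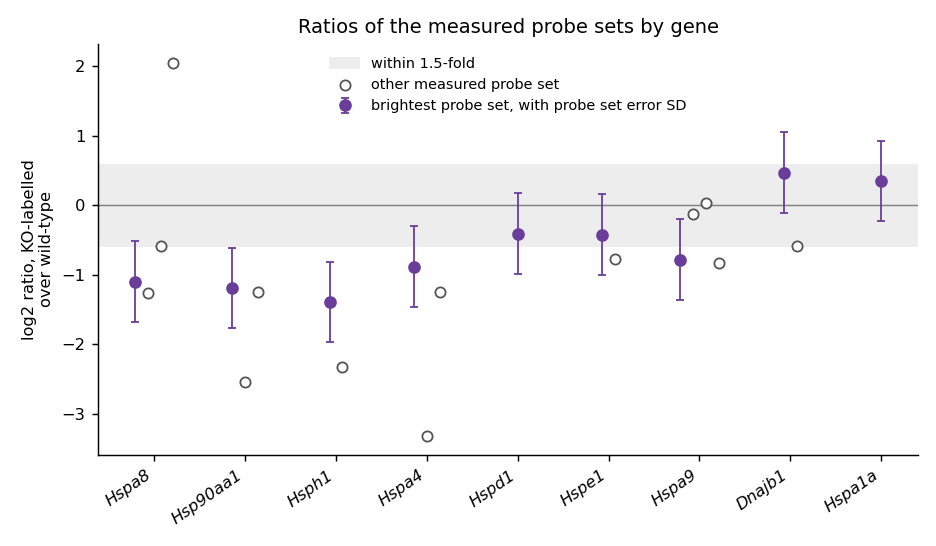
Log2 ratio of KO-labelled over wild-type signal for the 22 measured probe sets of the 9 genes. Filled points are the brightest probe set of a gene with the probe set error SD of 0.58 as bars, open points are its other probe sets, and the grey band marks ratios within 1.5-fold. All measured points of Hsp90aa1, Hsph1 and Hspa4 lie below the band, while Hspa8 has 1 point at 2.05.

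Among brightly measured genes a difference of this size was less common. The tenth of genes with the highest signal held 1225 genes, 3 of them heat shock genes: Hspa8, Hsp90aa1 and Hsph1. All 3 were at least 2-fold lower in the KO-labelled pool, against 3.67% of those 1225 genes. Under quantile normalization Hspa8 (-0.85) and Hsp90aa1 (-0.96) fell short of 2-fold. Hspa8 also fell short with loess (-0.93) and by the median of its probe sets (-0.84). The median log2 ratio of the 1225 was -0.08. In the plot of ratio against signal these 3 genes lie at the right, below the line of 1.5-fold. The measured heat shock probe sets with a geometric mean signal under 512 units were 5, of which 3 were at least 1.5-fold lower and 1 higher, against 1982 lower and 2162 higher of all 10822 probe sets of that class that name 1 gene. Of the 17 brighter ones 11 were lower and 0 higher, against 1820 and 1290 of all 10145.

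**Figure D4:**
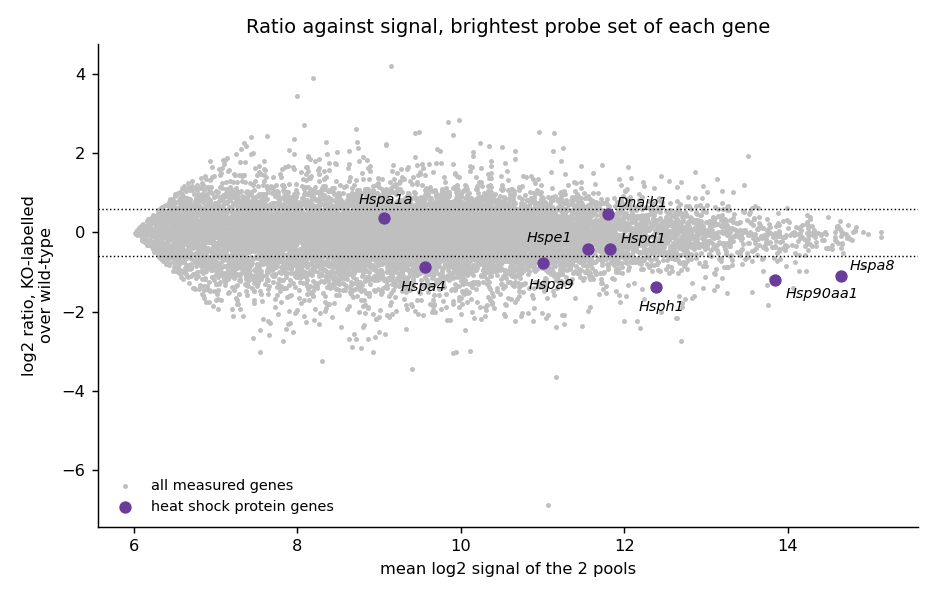
Log2 ratio of KO-labelled over wild-type signal against the mean log2 signal of both pools, by the brightest probe set of each of 12244 measured genes (grey) and of the 9 heat shock genes (purple); dotted lines mark 1.5-fold. Hspa8, Hsp90aa1 and Hsph1 lie at high signal below the lower line, Dnajb1 and Hspa1a between the lines above 0.

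Partner genes of the HSP70 cycle were mostly lower too. Of 10 nucleotide exchange factors and cofactors, 6 were at least 1.5-fold lower in the KO-labelled pool and 2 higher, with a median log2 ratio of -0.89. For this and every list below, the shares to compare are those of all 12244 measured genes, 18.2% lower and 12.5% higher. Stip1, which hands clients from HSP70 to HSP90, had 2101 units in the WT pool and 505.9 units in the KO-labelled pool, 4.19-fold lower. Bag1, an exchange factor, had 3467.6 and 858.4 units, 4.07-fold lower. Hspbp1, another exchange factor, and St13, the HSP70-interacting protein HIP, had ratios of -1.08 and -0.99. The higher genes were Bag4 at 0.72, with another probe set at -0.73, and Bag3, a stress-induced partner in autophagy, at 0.60. All of Stip1, Bag1, Hspbp1 and Bag3 rest on 1 probe set each.

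J-domain proteins, in a list labelled cytosolic that also holds nuclear ones such as Dnajc8, showed both directions. Of 20 measured, 11 were at least 1.5-fold lower and 1 higher, with a median of -0.59. The lowest were Dnajc2 at -2.91, with its other measured probe set at -1.1, and Dnajc21 at -2.68, with its other at -0.9. Both work beside the ribosome or on its assembly. The next were Dnajc8 at -1.03 and Dnaja1 at -0.95. Dnaja1, a main partner of Hspa8, had 9165.1 units in the WT pool and 4770.8 units in the other, with all 3 probe sets between -1.26 and -0.67. The higher gene was Dnajc5, which encodes the cysteine string protein of synaptic vesicles, at 1.30 with its 5 probe sets between -0.33 and 1.30.

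HSP90 co-chaperones were more mixed. Of 12 measured genes 4 (33.3%) were at least 1.5-fold lower and 2 (16.7%) higher, against 18.2% and 12.5% of all genes. The median was -0.40. Sugt1 was lowest at -1.33, followed by the kinase adaptor Cdc37 at -0.94, the immunophilin Fkbp4 at -0.91 and the phosphatase Ppp5c at -0.89. The Ppp5c probe sets lay between -0.93 and -0.31. Cdc37l1, a relative of Cdc37, was 5.73-fold higher by its brightest probe set, with its 6 probe sets between -0.72 and 2.52. Unc45a, a myosin and HSP90 cofactor, was at 0.78 with another probe set at -0.03.

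Relatives of the heat shock genes were read in the same way. Of 7 measured HSP70 and HSP90 relatives 3 were at least 1.5-fold lower and 0 higher, with a median of -0.52. Hspa4l, the third cytosolic HSP110 gene, was at -0.93 with its 5 probe sets between -2.40 and -0.63. All 3 cytosolic HSP110 genes were thus lower by every measured probe set. Hspa12a was also at -0.93, and Hspa13 at -0.61 with another probe set at 1.13. Of 6 measured small heat shock proteins 1 was lower (16.7%, against 18.2% of all genes) and 0 higher. That gene was Cryab, alpha-B crystallin, with 4977.9 units in the WT pool and 2840.8 units in the KO-labelled pool. Of the 5 genes listed as heat shock factors or their binding protein, 4 had a probe set with 1 symbol and 2 were measured. Hsf1 had no value here. The measured genes lay within 1.5-fold: Hsbp1, which encodes the heat shock factor binding protein, at -0.12, and the factor Hsf4 at 0.05.

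Partners of the mitochondrial chaperones were lower in part. Of 19 measured import, folding and protease genes 6 were at least 1.5-fold lower and 0 higher, with a median of -0.54. Clpx, the unfoldase of the matrix protease ClpXP, was at -1.46, although its other probe set gave 2.64. Its protease partner Clpp was at -0.95, Lonp1, the other soluble matrix protease, at -0.99, and Pmpcb, which trims import signals, at -1.43. Grpel1, the exchange factor of Hspa9, lay just within 1.5-fold at -0.55.

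Among the closest other chaperone families, those of the endoplasmic reticulum and the TCP1 ring were set beside the heat shock genes. Of 14 measured chaperones of the endoplasmic reticulum 7 were at least 1.5-fold lower and 0 higher, with a median of -0.58. Pdia3 was lowest at -2.51, and Hsp90b1, Hspa5 and Calr were at -2.39, -2.23 and -1.45. The highest was Hyou1 at 0.46, with its other measured probe set at 1.38. Of 8 measured subunits of the TCP1 ring, the cytosolic chaperonin that folds actin and tubulin, 2 were lower and 0 were higher, and the median was -0.17. The lower subunits were Cct5 at -1.55 and Cct3 at -0.80, the latter with its measured probe sets between -1.6 and -0.15. Without replicates the difference between these families could not be tested.

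**Figure D5:**
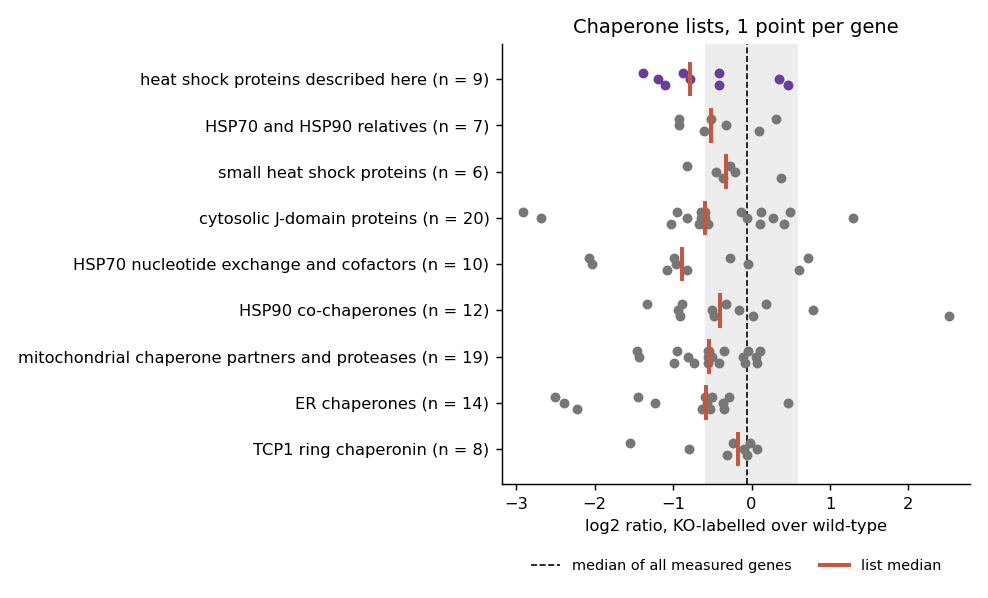
Log2 ratio of KO-labelled over wild-type signal for the measured genes of 9 chaperone lists, 1 point per gene by its brightest probe set. Red bars are list medians, the dashed line is the median of all measured genes at -0.06 and the grey band marks ratios within 1.5-fold. The medians of the heat shock genes (-0.78) and of the HSP70 cofactors (-0.89) lie below the band and that of the TCP1 ring (-0.17) inside it.

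Markers of other cells differed between the pools beside these values. Gh, the pituitary growth hormone gene, had 23222.9 units in the WT pool and 200 units in the KO-labelled pool. Among the 9 microglia markers measured, 6 were lower in the KO-labelled pool by 1.5-fold or more and 1 was higher, with a median of -0.93. Their summed signals were 12737.6 and 10806.9 units, but without Csf1r, the brightest, 6347.8 and 2976.8 units, 2.13-fold lower in the KO-labelled pool. Of 8 astrocyte markers 4 were lower and 0 higher, with sums of 71783.7 and 67198.9 units. Of 6 oligodendrocyte markers 1 was lower and of 5 measured endothelium markers 0 were past 1.5-fold. Of the red blood cell markers only Alas2 was measured, at -0.23. The part of the pituitary, glial or sex-linked differences in the heat shock ratios was not tested.

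Genes with heat shock element letters are given as a class for comparison. Of 9924 measured genes with a promoter window, 18.3% were at least 1.5-fold lower and 12.4% higher in the KO-labelled pool. Of the 59 with a 3-unit match 16.9% were lower and 5.08% were higher. Their median was -0.13, and without the heat shock genes described here the median of the other 56 was -0.09. Of the 1377 with a 2-unit match 19.8% were lower and 10.3% higher.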

How the data were processed

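The deposited values are linear intensities, 1 per probe set and array. Per the submitters' processing notes the software was GCOS, with no version, signal method or detection calls in the sources used here. After trimming 2% at either end both arrays had a mean of 500.0, so they had been scaled before deposit. Depth does not apply, and the number of arrays limits precision.

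Samples were grouped by title. The floor was the 40th percentile of non-control signals of both arrays, 64.2 units. The centring constant was 0.01. Names of genes were taken from the array's annotation (34945 probe sets with 1 symbol, 932 with several, 9160 with none), with symbols updated through gene identifiers to the RefSeq table of GRCm38.p6 (34741 matched). Each gene is represented by its brightest probe set, by mean log2 signal. A ratio against a signal under the floor is a lower bound against the floor.

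The genes and lists were chosen with earlier results of these data known. Named genes are all members, Gnmt, and up to 4 at either end of each list past 1.5-fold, or the highest and lowest where none is. Xist, Grpel1, Hspa1b, Hsf2 and Hyou1 were added after their values were seen. No test was run. The calculations were checked on simulated data. Alternatives covered the floor, scaling, choice of probe set and suffixed probe sets. Python 3.11.15, numpy 2.4.6, pandas 2.3.3, statsmodels 0.14.6 and matplotlib 3.10.9 were used.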

Additional observations from a re-analysis of the deposited data

How the results depend on the processing

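The median log2 ratio of the 9 heat shock genes lay between -0.89 and -0.60 under floors at the 25th or 60th percentile or none, no centring, quantile normalization, loess, the median of all probe sets and no suffixed probe sets. By second brightest probe sets it was -1.26 over 7 genes. The count at least 1.5-fold lower stayed at 5 of 9 except by second brightest probe sets (6 of 7) and without suffixed probe sets (4 of 8). The genes behind it were not always the same. By the median of all probe sets Hspe1 (-0.60) took the place of Hspa9 (-0.45). By second brightest probe sets Hspe1 (-0.77) and Dnajb1 (-0.59) were among the lower genes and Hspa9 (-0.13) was not. Without suffixed probe sets Hspe1 (-0.82) was among them. The share of all measured genes that were lower ranged from 15.2% with the floor at the 60th percentile to 27.2% with no floor. It was 19.1% by second brightest probe sets and 20.4% without suffixed probe sets. The count at least 1.5-fold higher was 1 in place of 0 with quantile normalization (Dnajb1, at 0.63) and without suffixed probe sets (Hspa8, whose ratio turned to 2.0). Hsph1 had no value without suffixed probe sets. Of 78 single gene values under the alternatives, 71 moved by no more than the probe set error SD, 6 moved further, and Hspa8 changed sign. Dnajb1, which lay within 1.5-fold, also changed sign, turning to -0.59 by its second probe set and to -0.06 by the median of its probe sets. The cause was not tested. No paired analysis was possible because each group has 1 array.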

Other observations

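Probe sets naming several genes were left out of the gene values and include further chaperone partners. The pair shared by Ptges3, the HSP90 co-chaperone p23, and a pseudogene had log2 ratios of 0.14 and 0.71. The probe set shared by Ppid, an HSP90 immunophilin, and Lamp3 had -0.26. Of the 3 shared by Dnajc19, a J-domain protein of mitochondrial import, and its pseudogene, the brightest had -0.66 and the others 0.60 and -1.44. Hsf2, a heat shock factor gene singled out after its values were seen, had 53.3 units in the WT pool, below the floor, and 172.5 units in the KO-labelled pool, at least 2.66-fold higher.

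Among bacterial control transcripts added before hybridization, bioD differed little between the arrays (0.06 and 0.07), bioB had -0.50 to -0.43 and bioC had -1.68 and -1.56. The cre controls had -0.26 and -0.33.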
